A study of Mus musculus with 65 samples.

Results

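The immediate early genes Fos, Fosb and Zfp36 and the Zfp36 paralog Zfp36l1 were described cell by cell in single hematopoietic stem cells of aged mice. They were taken by gene name, with earlier results of these data known, as 4 of the 18036 rows of a table of gene counts, and all 4 had a row. The aLR-HSC were 37 GFP-positive (label-retaining) long-term stem cells, and the anLR-HSC, with which they were compared, were 28 GFP-negative ones. Both came from the femora and tibiae of SCL-tTAxH2B-GFP double heterozygous mice older than 20 months. In this model the SCL regulatory sequence drives the transactivator that makes histone H2B-GFP, so the label marks only cells in which it was active, and each division dilutes it. All cells had the same surface phenotype (LSK, low in or without CD34, with CD150 and without Flk2 and CD48). All were also kept overnight at 3% oxygen with no growth factors before lysis, so the values describe cultured cells. The 4 biological repeats gave 9, 9, 10 and 9 aLR-HSC and 8, 4, 6 and 10 anLR-HSC. The number of mice behind a repeat and the time without new label are not stated in the labels.

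Immediate early genes are transcribed within minutes of a stimulus from factors already in the cell, and their mRNAs are short-lived. Fos and Fosb encode subunits of AP-1, a dimeric transcription factor formed with Jun proteins. Zfp36 encodes tristetraprolin, a zinc finger protein that binds AU-rich elements in the 3′ untranslated region (UTR) of mRNAs and recruits the CCR4-NOT deadenylase, which starts their decay. Zfp36l1 encodes a related protein that binds the same elements, and it is grouped here with the family rather than with the classic immediate early genes. Fos mRNA is a textbook carrier of such elements, so the 4 genes include both such regulators and a target. Jun, Junb, Jund, Fosl2, Atf3, Ier2, Dusp1, Nr4a1 and Myc were not analysed here.

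Depth differed between the groups. The total per cell was 27954 to 20516069 counts in aLR-HSC (median 264894) and 86 to 661078 in anLR-HSC (median 118056), over a table that covers 46.7% of protein-coding genes. The median cell had 1948 genes with a count in aLR-HSC and 961.5 in anLR-HSC, and 4 anLR-HSC and 0 aLR-HSC held under 10000 counts. Any of the 9 stem cell genes with a row was found in 37 aLR-HSC and 23 anLR-HSC, and 5 of them in at least 10 cells. Among these 5, Hlf had a count in 31 aLR-HSC and 12 anLR-HSC, Meis1 in 24 and 12, and Gata2 in 24 and 10. The others were rare, with Hoxa9 in 5 aLR-HSC and 0 anLR-HSC, Hoxb5 in 2 and 0, and Fgd5 in 1 and 1. Slamf1, which encodes the sorted antigen CD150, was at 0 in all 65 cells. The GFP transcript was not analysed here. Markers of other lineages were counted as well. Any of the 4 erythroid genes with a row was found in 36 aLR-HSC and 26 anLR-HSC, at 0.143 to 9.35% and 0.515 to 3.54% of the counts of a repeat. Any of 5 megakaryocyte genes was found in 30 and 13 cells (Gp1ba and Gp9 at 0), and any of 6 monocyte genes in 25 and 5, mostly Cx3cr1 (Csf1r and Adgre1 at 0). Any of 6 neutrophil genes was found in 3 and 1 cells (Elane, Mpo and Ltf at 0), and any of 4 T and NK cell genes in 2 and 1 (Cd4 and Nkg7 at 0). The part of other lineages in the results was not tested.

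Some libraries had profiles much more alike than others, and their results are therefore given with and without them. Over 3489 genes, the log2 profiles of the 61 libraries with at least 10000 counts correlated at a median Pearson r of 0.248, and the highest value between different repeats was 0.523. Within repeats, 18 pairs correlated above 0.6 and 6 above 0.8. The closest pair crossed the groups: aLR-HSC cell 3, the deepest library, and anLR-HSC cell 3 correlated at 0.98. Of the 1720 genes with at least 100 counts in the aLR-HSC library of that pair, 98.5% had a count in the anLR-HSC one, at a median ratio of 0.0154, where the other pairs of libraries of a repeat shared a median of 53.5%. In repeat 3, aLR-HSC cells 20, 21 and 22 correlated at 0.865 to 0.977 with each other, and cell 23 at 0.633 to 0.705 with them. The 65 libraries came from 1 sequencing run and carried 65 different index pairs per the labels. Of the 18 pairs above 0.6, 77.8% shared the second index, against 47.9% of the other pairs of a repeat, and the cells 3 shared neither index. Keeping the deepest library of each set left out 2 aLR-HSC and 3 anLR-HSC above 0.8, and 7 aLR-HSC and 4 anLR-HSC above 0.6. Separately, aLR-HSC cells 15 and 16 of repeat 2 held B cell transcripts (Cd74, Cd79a and Cd79b) at 0.305% and 4.59% of their counts, whereas the 63 other libraries held at most 7 counts of them and 44 held 0. The part of like profiles, a shared index or B cell RNA in the results was not tested.

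**Figure D1:**
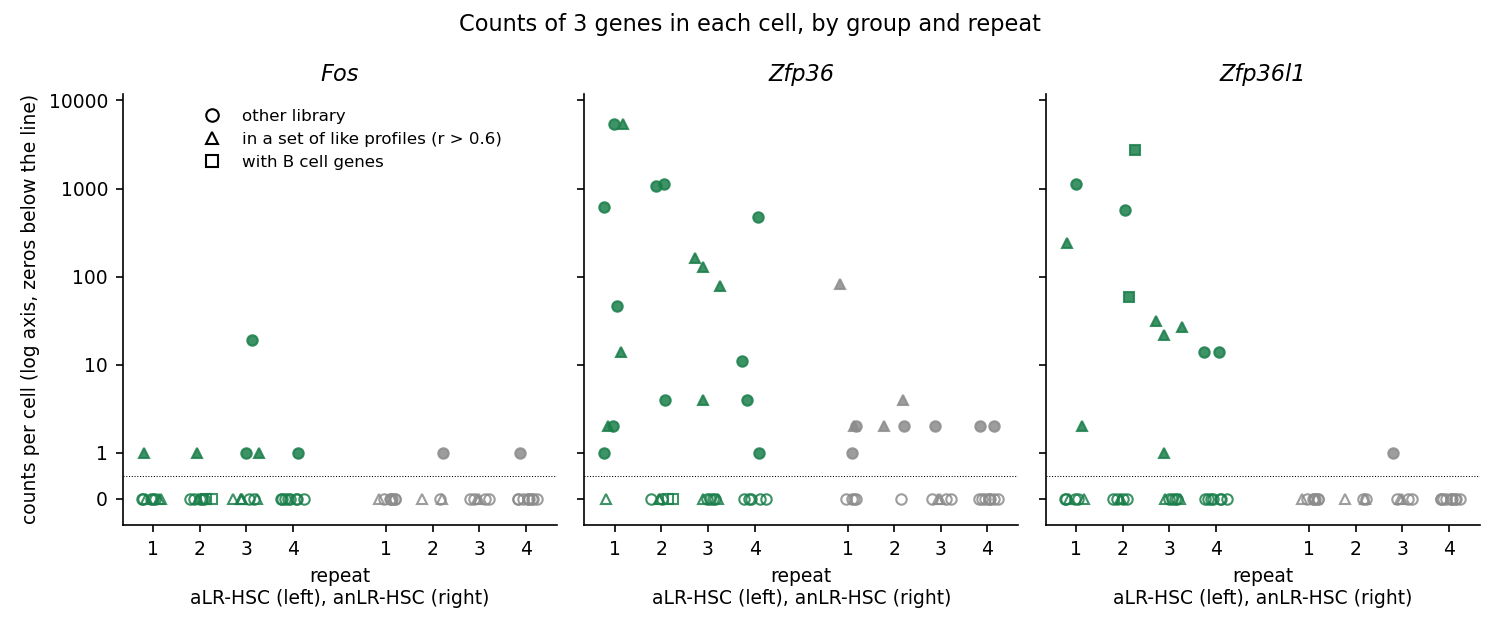
Counts of Fos, Zfp36 and Zfp36l1 in every cell (log axis, zeros under the dotted line), by repeat, with aLR-HSC left in green and anLR-HSC right in grey. Triangles are libraries in a set of like profiles (r above 0.6) and squares the 2 libraries with B cell genes. Values of 10 or more were in 12 aLR-HSC and 1 anLR-HSC for Zfp36, and in 10 and 0 for Zfp36l1.

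Of the 4 genes, only Zfp36l1 had no overlap between the groups in the share of cells with a count. The gene (NCBI 12192) lies on the minus strand at chr12:80107760-80113013 of GRCm38 and has 2 exons. It had a count in 12 of 37 aLR-HSC (32.4%, exact binomial interval 18.0 to 49.8%) and in 1 of 28 anLR-HSC (3.57%, 0.0904 to 18.4%). By repeat, a count was found in 3 of 9, 3 of 9, 4 of 10 and 2 of 9 aLR-HSC, against 0 of 8, 0 of 4, 1 of 6 and 0 of 10 anLR-HSC. The lowest aLR-HSC repeat was thus above the highest anLR-HSC repeat, as it was for 8.48% of the 3489 genes with a count in at least 10 cells (296 genes, and 0 genes separated the other way). The share averaged 32.2 ± 7.37% in aLR-HSC and 4.17 ± 8.33% in anLR-HSC (SD, n = 4 repeats each), a difference of 28.1 percentage points (two-sided exact permutation p = 0.0286, the smallest that 4 against 4 allows, and adjusted p = 0.337 over the 3489 genes). The share was higher in aLR-HSC in 4 of 4 repeats, and with the repeats paired the exact sign-flip p was 0.125, the smallest it can give. For 93.5% of the 3489 genes the share was higher in aLR-HSC, with a median difference of 19.4 points, and Zfp36l1 stood at the 75.1 percentile of these differences.

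With every cell thinned to 10000 counts, which leaves out 4 anLR-HSC, the expected share of cells with a Zfp36l1 count was 17.6 ± 9.59% in aLR-HSC and 0.160 ± 0.319% in anLR-HSC (exact permutation p = 0.0286, n = 4 repeats each, adjusted p = 0.604). The groups again did not overlap, as for 4.61% of genes after thinning (0.115% separated the other way). The median difference over all genes at this depth was 6.32 points, against 17.4 for Zfp36l1.

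The counts behind these shares ran from 1 to 2773 in aLR-HSC, while the anLR-HSC value was a single count. In aLR-HSC the values were 2, 242 and 1133 in repeat 1, 58, 566 and 2773 in repeat 2, 1, 22, 27 and 31 in repeat 3, and 14 and 14 in repeat 4. Cell 16, one of the libraries with B cell genes, held 56.8% of all aLR-HSC counts of the gene. The mean level per cell was 0.455, 2.95, 0.125 and 0.125 counts per 10000 in the aLR-HSC repeats, against 0, 0, 0.00639 and 0 in the anLR-HSC repeats. Every aLR-HSC repeat was above every anLR-HSC repeat (exact permutation p = 0.0286, n = 4 each, adjusted p = 0.557), as for 5.07% of genes (0.0573% the other way). Zfp36l1 stood at the 75.1 percentile of the differences in mean level, and Zfp36 at the 82.6 percentile. With the repeats paired, the sign-flip p was 0.125. Repeat 2 alone carried most of the difference, which was 0.911 with all repeats and 0.233 without it.

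The libraries with like profiles and with B cell genes both bore on Zfp36l1. All 4 aLR-HSC of repeat 3 with a count were cells 20 to 23, and 2 of the 3 in repeat 2 were cells 15 and 16. The Zfp36l1 counts of cells 15 and 16 stood at a ratio of 0.0209, near the median ratio of 0.0247 over the 474 genes with at least 100 counts in cell 16. With 1 library kept of each set above 0.8, the share was 28.5% in aLR-HSC and 5.00% in anLR-HSC (exact permutation p = 0.0286, n = 4 repeats each). With the sets above 0.6 reduced, a count was left in 8 of 30 aLR-HSC and 1 of 24 anLR-HSC, and the mean shares were 26.2% and 5.00% (exact permutation p = 0.0571). Without the libraries with B cell genes the shares were 27.5% and 4.17% (p = 0.0571, exact permutation). With both left out, 6 of 28 aLR-HSC and 1 of 24 anLR-HSC had a count, and the shares of 21.0% and 5.00% differed with an exact permutation p of 0.0857. Under these reductions the mean level per cell still separated all repeats. With both left out it was 0.551 counts per 10000 in aLR-HSC and 0.00192 in anLR-HSC (exact permutation p = 0.0286). The anLR-HSC value rests on 1 count, and the share of all genes that separate in the reduced sets was not computed.

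**Figure D2:**
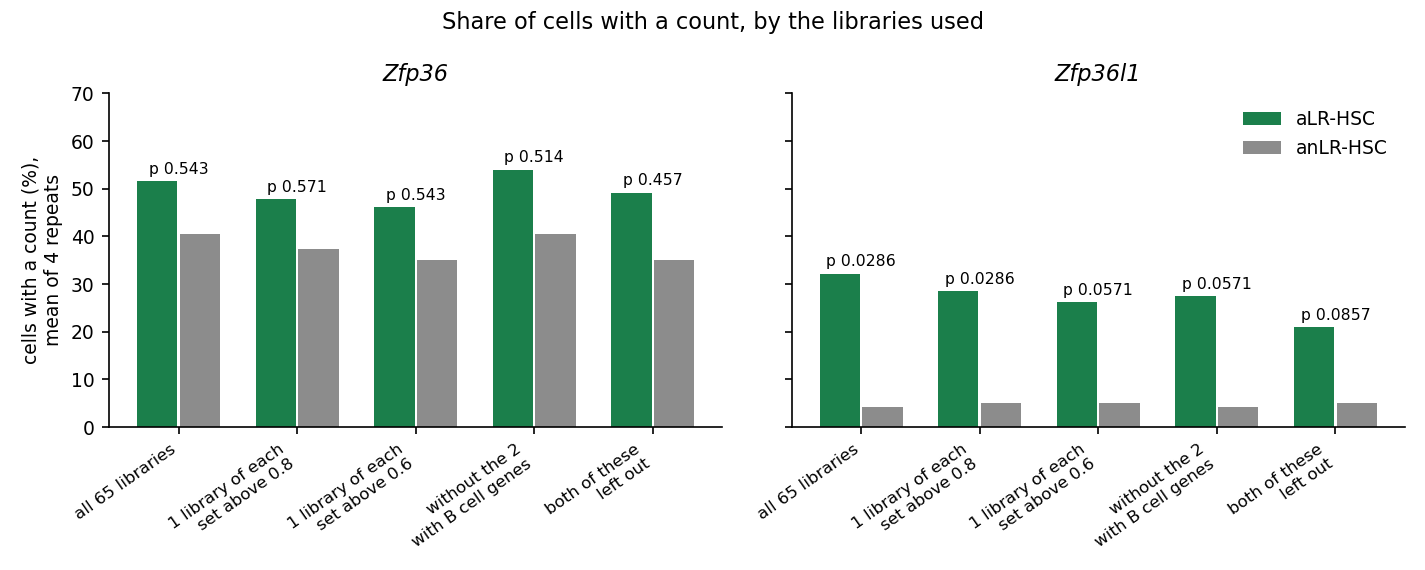
Share of cells with a Zfp36 (left) or Zfp36l1 (right) count, as the mean of 4 repeats, in aLR-HSC (green) and anLR-HSC (grey), for 5 choices of libraries; p is from the exact permutation test on the repeats. For Zfp36l1 the shares were 32.2% and 4.17% with all libraries, and 21.0% and 5.00% with the like libraries and those with B cell genes both left out.

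Zfp36 was detected in more cells of both groups than Zfp36l1, at shares that overlapped between them. The gene (NCBI 22695) has 2 exons on the minus strand at chr7:28376784-28379228. It had a count in 19 of 37 aLR-HSC (51.4%, exact interval 34.4 to 68.1%) and in 10 of 28 anLR-HSC (35.7%, 18.6 to 55.9%). By repeat these were 8 of 9, 3 of 9, 4 of 10 and 4 of 9 aLR-HSC, against 4 of 8, 3 of 4, 1 of 6 and 2 of 10 anLR-HSC. The repeats of both groups overlapped, and the shares of 51.7 ± 25.2% in aLR-HSC and 40.4 ± 27.5% in anLR-HSC (SD, n = 4 repeats) differed by less than the spread between repeats (exact permutation p = 0.543). The difference of 11.3 points was 1.96 without the cells under 10000 counts, 2.04 without repeat 1 and 28.9 without repeat 2. At 10000 counts per cell, the expected shares were 30.7% in aLR-HSC and 20.4% in anLR-HSC (p = 0.486, exact permutation).

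Among the cells with a count, the Zfp36 values of aLR-HSC were 1, 2, 2, 14, 47, 624, 5442 and 5445 in repeat 1, 4, 1060 and 1124 in repeat 2, 4, 79, 128 and 162 in repeat 3, and 1, 4, 11 and 471 in repeat 4. In anLR-HSC they were 1, 2, 2 and 82 in repeat 1, 2, 2 and 4 in repeat 2, 2 in repeat 3, and 2 and 2 in repeat 4. At least 10 counts were thus found in 12 aLR-HSC and 1 anLR-HSC, and the single such anLR-HSC was cell 3, the library with the profile of aLR-HSC cell 3. Its Zfp36 ratio to that library was 0.0151, close to the median ratio of 0.0154 over the 1720 genes with at least 100 counts in aLR-HSC cell 3. The share of cells with at least 10 counts averaged 32.5% in aLR-HSC and 3.13% in anLR-HSC (exact permutation p = 0.0286, n = 4 repeats each, adjusted p = 0.235). No repeats overlapped, as for 12.2% of the 3489 genes under the same threshold, and Zfp36 stood at the 84.8 percentile of the differences. With the sets above 0.6 reduced it was 30.3% in aLR-HSC and 0% in anLR-HSC (9 of 30 and 0 of 24 cells, exact permutation p = 0.0286). This threshold is not corrected for depth, which was higher in aLR-HSC. The share of all genes that separate was not computed for the reduced sets.

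Relative to depth, the mean Zfp36 level per cell was 2.53, 2.28, 0.573 and 1.16 counts per 10000 in the aLR-HSC repeats, against 0.467, 0.670, 0.00504 and 0.0878 in the anLR-HSC repeats. Within every repeat aLR-HSC were higher, but repeat 3 of aLR-HSC lay below repeat 2 of anLR-HSC. The means of 1.63 ± 0.925 in aLR-HSC and 0.307 ± 0.314 in anLR-HSC did not pass the threshold (exact permutation p = 0.0571, n = 4, adjusted p = 0.586). They passed it with 1 library kept of each set above 0.8, at 1.56 in aLR-HSC and 0.139 in anLR-HSC (exact permutation p = 0.0286). For that set no adjusted p of the exact test was computed.

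The sums over the cells of each repeat were also compared with edgeR's quasi-likelihood test across 2786 genes, in which Zfp36 and Zfp36l1 passed the filter on low counts and Fos and Fosb did not. Zfp36 had 177, 119, 88.6 and 215 CPM (counts per scaled library) in the aLR-HSC sums, against 58.1, 31.5, 3.83 and 10.5 CPM in the anLR-HSC sums. Zfp36l1 had 21.0, 184, 19.2 and 12.4 CPM in aLR-HSC, against 0, 0, 1.92 and 0 CPM in anLR-HSC. Neither gene's groups overlapped, as for 5.28% of the tested genes (0.179% the other way). The edgeR log2 fold change of Zfp36 was 2.52 (SE 2.16, adjusted p = 0.586), against a median of 1.15 over all tested genes. For Zfp36l1 edgeR gave an unadjusted p of 0.0247 and an adjusted p of 0.408. With 1 count in anLR-HSC its fitted fold depends on the prior count, and the ratio of summed counts per total was 472 (exact interval 84.7 to 18645, for counting error only). Without cell 16 it was 211 (37.8 to 8337). The test called 0 of 2786 genes higher and 0 lower (0% each). At an unadjusted p under 0.05 it had 180 genes higher (6.46%) and 122 lower (4.38%) in aLR-HSC, and DESeq2 called 11 genes.

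Fos was found in few cells of either group and almost always as a single count. The gene (NCBI 14281, 4 exons) lies on the plus strand at chr12:85473890-85477274. It had a count in 6 of 37 aLR-HSC (16.2%, exact interval 6.19 to 32.0%) and in 2 of 28 anLR-HSC (7.14%, 0.877 to 23.5%). In aLR-HSC the values were 1 in repeats 1, 2 and 4, and 1, 1 and 19 in repeat 3. In anLR-HSC they were 1 in repeat 2 and 1 in repeat 4. The groups overlapped, and the shares per repeat of 15.8 ± 9.44% in aLR-HSC and 8.75 ± 11.8% in anLR-HSC (SD, n = 4) did not differ beyond their spread (exact permutation p = 0.429). Cell 19 of repeat 3, with 19 counts among 242202, held 79.2% of the aLR-HSC counts of Fos. Without repeat 3 the share was lower in aLR-HSC by 0.556 points. After thinning, the shares were 1.69% in aLR-HSC and 1.71% in anLR-HSC.

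Fosb, the close paralog of Fos, had no count in any cell. The gene (NCBI 14282, 4 exons) lies on the minus strand at chr7:19302696-19310118. The 0 of 37 aLR-HSC and 0 of 28 anLR-HSC allow a share of up to 8.11% and 10.7% of cells with a count, and the summed totals allow up to 0.0597 CPM in aLR-HSC and 0.617 CPM in anLR-HSC. Fosb was thus not detectable at this depth, and no difference could be tested.

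**Figure D3:**
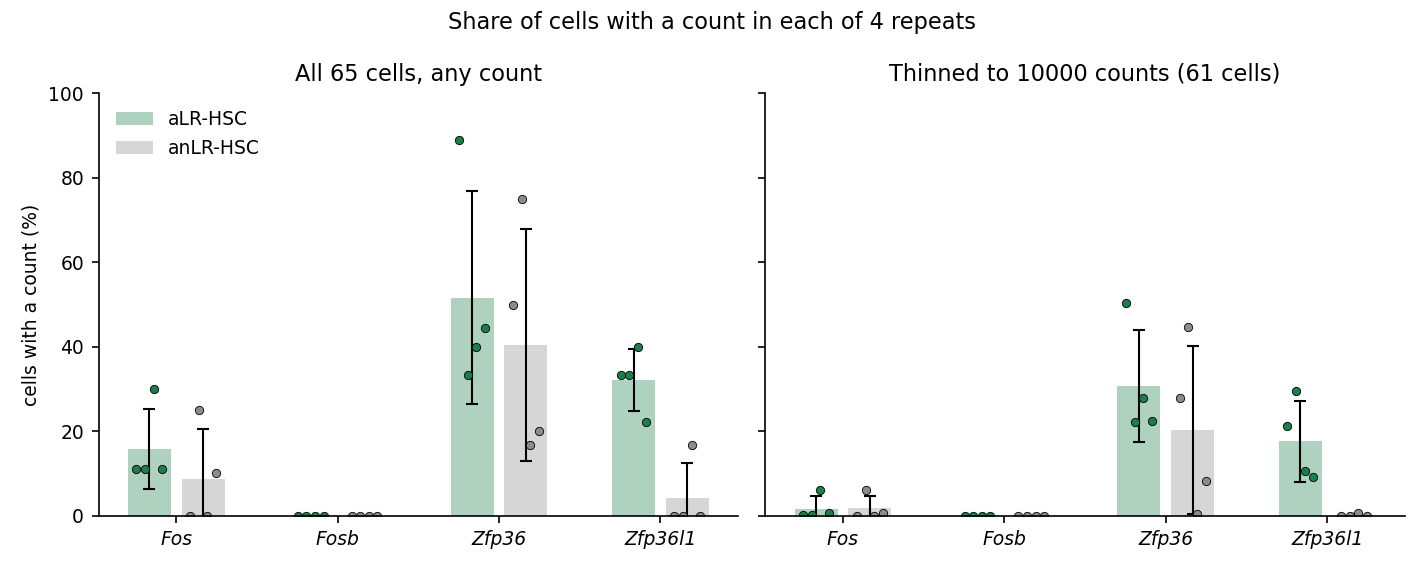
Share of cells with a count of each gene in aLR-HSC (green, left bar of each pair) and anLR-HSC (grey), for all cells (left) and after thinning to 10000 counts (right). Bars are means of 4 repeats, points are repeats and error bars are SD (cropped at 0). Only for Zfp36l1 did no repeats of the groups overlap.

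Cells with Zfp36l1 were mostly cells with Zfp36 in aLR-HSC. Both genes had a count in 9 aLR-HSC, Zfp36 alone in 10, Zfp36l1 alone in 3 and neither in 15. In anLR-HSC the same counts were 0, 10, 1 and 17 cells. With all repeats pooled, Zfp36l1 was therefore found in 47.4% of the aLR-HSC with Zfp36 and in 16.7% of those without it. By repeat, cells with both numbered 2, 1, 4 and 2 in aLR-HSC and 0 in every anLR-HSC repeat. In the aLR-HSC repeats, Zfp36 alone was in 6, 2, 0 and 2 cells, Zfp36l1 alone in 1, 2, 0 and 0. Neither was in 0, 4, 6 and 5. The share with Zfp36l1 was thus lower in cells with Zfp36 in repeat 1, equal in repeat 2 and higher in repeats 3 and 4. The cells with both in repeat 3 were the like libraries 20 to 23. With the sets above 0.6 reduced, the pooled counts were 5, 9, 3 and 13 in aLR-HSC and 0, 7, 1 and 16 in anLR-HSC. A rate of joint detection over other gene pairs of the table was not computed. Of the 3 cells with Zfp36l1 alone, cells 15 and 16 were those with B cell genes.

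The median total was 541415 counts in the 9 aLR-HSC with both and 1154030 in the 10 with Zfp36 alone, but 160333 in the 15 with neither. The 10 anLR-HSC with Zfp36 alone had a median of 101274 counts. The levels of both genes (log2 of counts per 10000 plus 1) correlated at a Pearson r of 0.409 and a Spearman rho of 0.399 over 37 aLR-HSC. These libraries differed widely in depth and included sets of like profiles. The Zfp36 level also correlated with the number of genes detected, with a rho of 0.636 in aLR-HSC and 0.548 in 24 anLR-HSC.

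Fos was seen with Zfp36 in 1 aLR-HSC and 1 anLR-HSC, and with Zfp36l1 in 2 aLR-HSC and 0 anLR-HSC. Cell 19, which had the highest Fos value, had no count of the other 3 genes. Of the 4 genes, 0, 1, 2 and 3 were detected in 11, 16, 9 and 1 aLR-HSC and in 16, 11, 1 and 0 anLR-HSC. The mean number per cell was 0.997 ± 0.271 in aLR-HSC and 0.533 ± 0.323 in anLR-HSC (SD, n = 4 repeats, exact permutation p = 0.0857), and was higher in aLR-HSC in 3 of 4 repeats.

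**Figure D4:**
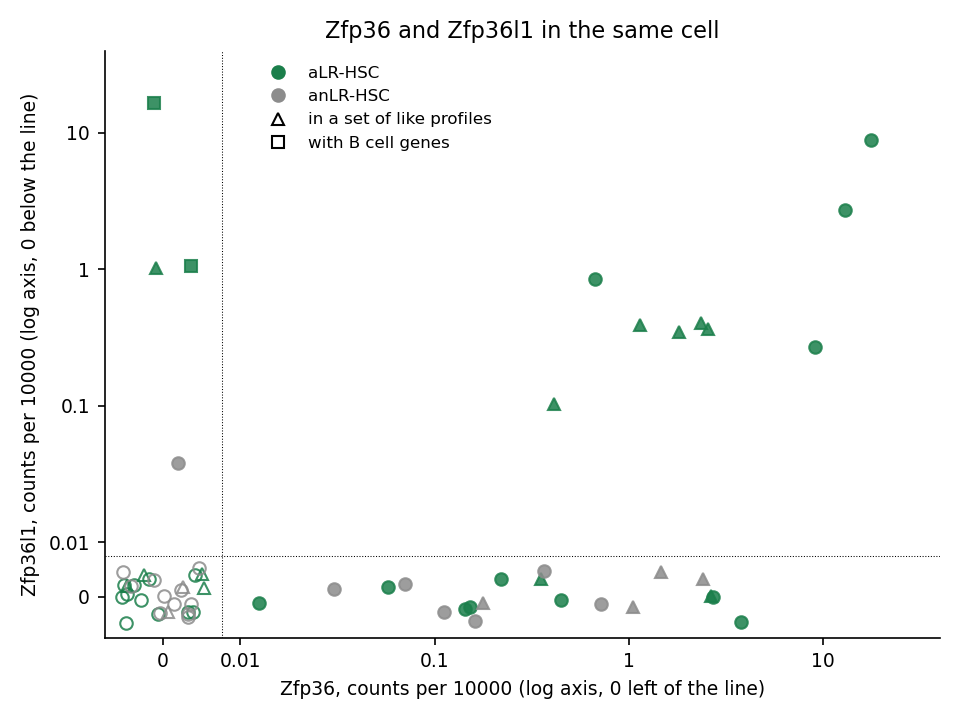
Zfp36 (horizontal) and Zfp36l1 (vertical) in counts per 10000 on log axes, 1 point per cell with at least 10000 counts, with zeros left of or below the dotted lines and spread out for visibility. The upper right holds 9 aLR-HSC (green) with both genes and 0 anLR-HSC (grey), and triangles and squares mark like libraries and those with B cell genes.

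The reference sequences of the 4 genes were searched for elements through which immediate early genes are known to be switched on. The windows run from 250 bases before to 50 after the RefSeq start (GRCm38.p6), and both strands were searched for the CArG box, bound by serum response factor, the cyclic AMP element core TGACG, the AP-1 site TGANTCA, the TATA box TATAAA and the ETS core CCGGAA. The promoters of the 2 genes on which the results turn are shown with the matches in capitals, the Zfp36 window at chr7:28379179-28379478 and the Zfp36l1 window at chr12:80112964-80113263, both on the minus strand.
Zfp36 promoter: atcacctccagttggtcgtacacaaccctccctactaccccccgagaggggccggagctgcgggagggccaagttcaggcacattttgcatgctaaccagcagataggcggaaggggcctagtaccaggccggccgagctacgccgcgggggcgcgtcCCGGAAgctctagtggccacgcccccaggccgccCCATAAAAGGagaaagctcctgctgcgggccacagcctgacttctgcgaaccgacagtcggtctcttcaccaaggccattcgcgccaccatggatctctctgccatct
Zfp36l1 promoter: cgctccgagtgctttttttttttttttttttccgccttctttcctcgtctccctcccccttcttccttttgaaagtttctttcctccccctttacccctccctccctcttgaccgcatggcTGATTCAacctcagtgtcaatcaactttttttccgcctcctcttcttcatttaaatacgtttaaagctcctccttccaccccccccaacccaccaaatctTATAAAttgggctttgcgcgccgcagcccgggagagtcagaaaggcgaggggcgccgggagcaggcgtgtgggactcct
The capitals in Zfp36 are an ETS core from -92 to -87 and a CArG box from -58 to -49, counted from the start. In Zfp36l1 they are an AP-1 site from -129 to -123 and a TATA box from -29 to -24. No motif was in both windows. Of 32851 mouse promoter windows of the same length, 1.63% held a CArG box, 7.81% the AP-1 site, 14.9% the ETS core and 13.6% TATAAA.

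The Fos window held TGACG from -129 to -125 and from -66 to -62 and TATAAA from -33 to -28, and the Fosb window held TGACG from -60 to -56. Of all windows, 20.8% held TGACG. Each match is only a string of letters in a window. Sequence outside the windows was not searched, so a gene without a match can still hold the motif further away.

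**Figure D5:**
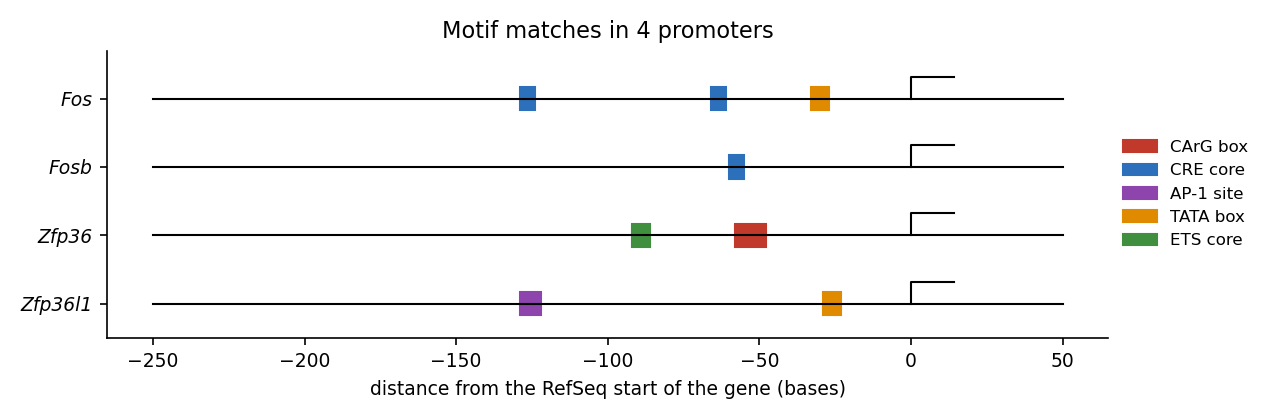
Motif matches in the 300-base promoter windows of Fos, Fosb, Zfp36 and Zfp36l1, by distance from the RefSeq start (arrow, bases). Within these windows Fos and Fosb held the CRE core, Zfp36 a CArG box and Zfp36l1 an AP-1 site. Sequence outside the windows was not searched.

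The core of the element that Zfp36 proteins bind, TATTTAT, was present in the 3′ UTR of all 4 genes. There were 2 in Fos, 1 in Fosb, 3 in Zfp36 and 3 in Zfp36l1, and 26.6% of 21691 genes had at least 1. One site of each gene is shown with its core in capitals, since the mRNAs of the binding proteins carry the same letters as those of Fos and Fosb (GENCODE M21, GRCm38). The sites lie at chr12:85477103-85477132, chr7:19303325-19303354, chr7:28376965-28376994 and chr12:80108421-80108450.
Fos site: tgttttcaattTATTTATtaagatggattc
Fosb site: ccacccccagcTATTTATccctttcctggt
Zfp36 site: agtgggcccttTATTTATgacgactttatt
Zfp36l1 site: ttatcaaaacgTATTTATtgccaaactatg

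Other members of the same pathways were mostly found in more aLR-HSC than anLR-HSC, as most genes were. Of 15 AP-1 family genes, 8 had a row and 6 a count, and edgeR called 0 of the 2 tested. Jdp2, which encodes a repressor that dimerizes with Jun proteins, had a count in 23 aLR-HSC and 4 anLR-HSC (exact permutation p = 0.0286 with and without thinning, n = 4 repeats each, adjusted p = 0.604 and 0.337). Its repeats did not overlap, as for 8.48% of genes before thinning and 4.61% after it. Mafg and Mafk, small Maf proteins, had a count in 19 and 6 aLR-HSC and in 9 and 4 anLR-HSC. The edgeR log2 fold change of the summed level was 4.93 for Jdp2 and -4.21 for Mafg (adjusted p = 0.448 and 0.493). Batf was found in 2 aLR-HSC and 0 anLR-HSC, and Fosl1 in no cell.

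Of 45 other immediate early genes, 23 had a row, 20 a count and 13 were tested, of which edgeR called 0. Their median edgeR log2 fold change was 1.98, against 1.15 over all tested genes, with 13 of 13 above 0. The share of all tested genes above 0 was not computed, here or for the lists below. Klf6, a zinc finger transcription factor, had a count in 29 aLR-HSC and 14 anLR-HSC. Ppp1r15a, a phosphatase subunit of the stress response, had one in 25 and 7, and Nfkbia, the inhibitor of NF-kB, in 19 and 6. Rhob, a small GTPase, was found in 18 aLR-HSC and 2 anLR-HSC (exact permutation p = 0.0286, n = 4 repeats each, adjusted p = 0.337, a separation that 8.48% of genes had, and p = 0.457 after thinning). Dusp6, a phosphatase of ERK, was found in 11 aLR-HSC and 6 anLR-HSC.

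Among 35 genes of the Zfp36 family and mRNA decay, 20 had a row, 19 a count and 18 were tested, with 0 called by edgeR. Their log2 fold changes were above 0 for 14 and below for 4, with a median of 2.82, against 1.15 over all tested genes. Zfp36l2, the other family member with a row, was the most widely found, in 31 aLR-HSC and 20 anLR-HSC, with an edgeR log2 fold change of -3.92 (adjusted p = 0.509). Cnot3, a CCR4-NOT subunit, had a count in 28 and 14 cells, and Pan3, of the PAN2-PAN3 deadenylase, in 18 and 8. Btg1, an antiproliferative protein that binds the deadenylase, was found in 30 aLR-HSC and 11 anLR-HSC (exact permutation p = 0.0286, n = 4 repeats each, adjusted p = 0.337, as for 8.48% of genes, and p = 0.2 after thinning). The edgeR log2 fold change of its summed level was -5.25 (adjusted p = 0.470), so share and level pointed opposite ways. Of 9 known AU-rich targets with a row, 5 had a count: Bcl2 in 18 and 8 cells, Ccl4 in 17 and 8, Ccl3 in 12 and 3, Ccnd1 in 3 and 1, and Fos as above. Ccl3 and Ccl4 were the 2 targets tested, with edgeR log2 fold changes of 4.88 and -5.10 (adjusted p = 0.474 for each). Csf2, Ptgs2, Il10 and Lif were at 0 in all cells.

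Upstream, 19 of 32 genes of the ERK, SRF and CREB inputs had a row and 14 were tested, with 0 called by edgeR. Their log2 fold changes were above 0 for 10 and below for 4, with a median of 2.05, against 1.15 over all tested genes. Elk4, a partner of serum response factor at CArG boxes, had a count in 32 aLR-HSC and 9 anLR-HSC (exact permutation p = 0.0571, n = 4 repeats each, with and without thinning). Creb1, which binds the TGACG core, had a count in 22 and 9, and Map2k3 in 26 and 12. The 4 heat shock genes with a row, which respond to cell handling, were each found in more aLR-HSC, Hsp90aa1 in 32 and 20 cells, Hsph1 in 21 and 4, Hspd1 in 14 and 4 and Hspe1 in 15 and 2. EdgeR called 0 of them, and their fold changes had both signs. Hspe1 and Hsph1 had log2 fold changes of 3.04 and 3.20, Hsp90aa1 and Hspd1 of -1.74 and -6.17 (adjusted p = 0.427 for Hspd1 and 0.562 to 0.710 for the others), with a median of 0.65. The part of handling in the values of the immediate early genes was not tested.

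The genes most like each member over the 61 cells with at least 10000 counts were ranked by Pearson correlation of log2(counts per 10000 + 1) among 3478 genes. For Zfp36 they were Trim34a (0.784), Dnajb9 (0.756), Pa2g4 (0.729), Ddx41 (0.715) and Rps6kb1 (0.694), where the median gene was at 0.148. With the like libraries above 0.6 reduced they stood at 0.701 to 0.833, and without the highest Zfp36 cell at 0.559 to 0.744. For Zfp36l1 they were Pes1 (0.866), Gimap1 (0.784), Gpat4 (0.743), Ccdc117 (0.738) and Rtraf (0.719), and without the highest cell 0.408 to 0.737. For Fos the highest value was 0.946, for Heatr5a, and 0.015 without cell 19, so the likeness rests on that cell. These cells differed widely in depth and included sets of like profiles, so the values are descriptions.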

How the data were processed

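SMART-Seq v4 cDNA of single cells was made into Nextera XT libraries, per the labels' protocols. The kit marks neither strand nor molecule, so Zfp36 and Gm44710 reads, or Zfp36l1 and Gm26669 reads, on overlapping stretches cannot be told apart. The values the authors deposited are estimated counts per NCBI gene, made from reads before deposit with DESeq and mm10 among the names in the submitters' processing notes. The deposited table is named as normalized, but cell totals run from 86 to 20516069, so the values were treated as unscaled, and counts, thinning and counting intervals rest on that reading. The aligner and counter are not stated. Unnamed genes took 0.13% of counts.

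A gene was detected at a value above 0. The repeat was the unit (4 against 4, exact permutation tests, two-sided). Levels were counts per 10000 in cells with at least 1000 counts. Counts summed by repeat and rounded were tested with edgeR 4.0.16 (R 4.3.3, TMM, quasi-likelihood, Benjamini-Hochberg, threshold 0.05) for genes with a mean of 10 or more per cell that were found in 10 or more cells. DESeq2 1.42.0 was an alternative. The scripts were tested on simulated data, but for edgeR the pass mark was set at a dispersion below that of the data. The data had a common dispersion of 3.415 and TMM factors from 0.223 to 2.042. A lack of called genes at that dispersion does not show a lack of differences. Deviations of same-numbered sums correlated at r 0.55, 0.295, 0.166 and 0.155 in repeats 1 to 4. The highest r with another number was -0.155, -0.048, 0.099 and 0.139, so pairing by number was weakly marked in repeats 3 and 4. Repeat 1 holds the like cells 3 of both groups. The main tests were unpaired, and a paired test is given for the Zfp36l1 share and mean level. Intervals are 95% and cover counting error only, with a floor of 3 counts for a value of 0. Named list genes are the 5 of each list found in the most cells, and the 5 most like each member. Batf, Fosl1, Csf2, Ptgs2, Il10 and Lif were named after their values were seen. The members, lists and rules were chosen with earlier results of these data known, and the choices on like libraries and B cell genes after seeing these data. Some genes the naming rule would give are not reported here.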

Additional observations from a re-analysis of the deposited data

Results flagged for a closer look

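Of 24 sets of 4 repeat values, 11 had 1 repeat standing apart from the other 3. The limit used marks about 1 set in 20 by chance for continuous values, but in a set with 3 zeros any count is marked, and several of the 11 are the same cells measured in different ways. For Fos in aLR-HSC, repeat 3 stood apart in the share of cells with a count (30.0%, the others 11.1%), in the share after thinning (6.07%) and in the mean level per cell (0.0840 counts per 10000). For Fos in anLR-HSC, repeat 2 stood apart after thinning (6.09%) and in the mean level (0.0609 counts per 10000), from 1 count in 1 of its 4 cells. For Zfp36l1 in aLR-HSC, repeat 2 stood apart in the mean level (2.95 counts per 10000) and in the summed level (184 CPM), with cell 16 as its largest value. For Zfp36l1 in anLR-HSC, repeat 3 held the only count, which set it apart in the share of cells (16.7%), the share after thinning (0.639%), the mean level (0.00639 counts per 10000) and the summed level (1.92 CPM).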

How the results depend on the processing

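Of the 2 results past the threshold of the exact test, both for Zfp36l1, the share of cells kept its direction but lost the threshold with the replicate block (28.1 points, p = 0.125), with sets above 0.6 reduced (21.2 points), without the B cell libraries (23.3) and with both (16.0), and was 26.3 to 30.0 points without 1 replicate, where 3 against 3 cannot go below 0.1. Its mean level per cell lost it with the replicate block (0.911 counts per 10000, p = 0.125) and was 0.233 to 1.17 without 1 replicate, lowest without replicate 2. Zfp36 passed the threshold in the share with at least 10 counts (29.4 points, and 30.3 with sets above 0.6 reduced) and in the mean level with sets above 0.8 (1.42) or 0.6 (1.61) reduced, or 0.6 and no B cell libraries (1.83). The members detected per cell passed it at 10 counts (0.588, and 0.607 with sets above 0.6 reduced), a cut not corrected for depth. They did not pass it after thinning (0.278, exact permutation p = 0.114) or without cells under 10000 counts (0.344, exact permutation p = 0.286). The same value for other sets of genes was not computed. Fos reversed after thinning (-0.0234 points), and without replicate 3 in share (without 1 replicate -0.556 to 14.1 points) and mean level (-0.0203 to 0.0279). The cause was not tested. DESeq2 called 11 genes, edgeR 0 in all 12 other settings. In edgeR the median log2 fold change of all genes was 1.15 with TMM, 1.78 with total counts and 0.63 in DESeq2. Zfp36 (1.54 to 3.93) and Zfp36l1 stayed positive wherever fitted; Zfp36l1 was not tested with sets above 0.6 reduced, where it failed the filter. With no filter on low counts Fos was fitted too, at 0.74. In anLR-HSC most positive values are 1 to 4 counts, which limits every comparison.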
